A study of Mus musculus with 24 samples.

Results

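Genes of transport between the endoplasmic reticulum (ER) and the Golgi apparatus were followed in 24 RNA sequencing libraries of cultured mouse neurons and astrocytes. The set was chosen by name and function: 39 symbols for subunits of the COPII and COPI coats, receptors for cargo and for retrieval, SNARE proteins and a Golgi tether, looked up among the 32728 genes of the deposited tables. All 39 were listed, and 38 had enough counts to be tested in every comparison. Arf4, a small GTPase of the COPI pathway, had 0 counts in every library except replicate 2 of control Perk KO astrocytes, where it had 2, so that no level or change is given for it. Of its exon bases 17.7% overlap those of Pde12 on the opposite strand, and whether its reads were lost in counting was not tested.

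Each of 8 groups held 3 libraries. They were TM-treated Perk KO neurons, control Perk KO neurons, TM-treated WT neurons and control WT neurons, and the same 4 groups of astrocytes. Perk, the study's name for Eif2ak3, encodes a kinase in the membrane of the ER, which slows translation during ER stress. All cultures came from mice with loxP sites in both copies of Perk, and all received a lentivirus. Active Cre recombinase made the Perk KO cells and an inactive form (ΔCre) the WT cells, so that WT cells also carry the floxed alleles and a virus. The promoter that drove Cre was not given in the sources used here. TM is tunicamycin, which blocks N-linked glycosylation so that unfolded proteins build up in the ER. It was given at 5 µg/mL for 24 hours, and control cells received its solvent DMSO. The design text of the study gives the duration as a range that ends at 24 hours. The titles call the 3 libraries of a group biological replicates without naming separate cultures or animals, so that all p-values rest on the spread among libraries alone, which may be technical.

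Secretory proteins leave the ER in vesicles shaped by the COPII coat. The GTPase Sar1, switched on by Preb, recruits a Sec23-Sec24 layer that binds cargo, and Sec13-Sec31 cages close around it at exit sites organised by Sec16a. Transmembrane receptors such as Lman1, Surf4 and the p24 (Tmed) proteins load cargo, and SNAREs such as Stx5a, Gosr2, Bet1 and Sec22b fuse the vesicles with their target. The COPI coat, recruited by Arf GTPases, carries escaped ER proteins back, including chaperones that end in the KDEL signal and are caught by the KDEL receptors. In cells with ER stress many genes of this route are known targets of the unfolded protein response, whose transcription factors include Xbp1, Atf6 and Atf4.

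Promoter sequences of 34 of the 39 members were available from RefSeq on build GRCm38.p6, from 250 bases before to 50 bases after a RefSeq start. For Tmed9 and Sec24a this window lay inside the gene as annotated in the deposited data, away from the start of that gene. Arcn1, Golgb1, Kdelr2, Lman1 and Tmed2 had no entry. The core of the unfolded protein response element, TGACGTGG on either strand, stood in 6 of the 34 promoters, of Sec23a, Sec24d, Kdelr3, Copb1, Copb2 and Stx5a. Of all 27025 promoters of the same table, 164 held it, or 0.607%. The 6 are shown because they are the members with this match. Each is printed from 60 bases before to 30 bases after the start, in lower case with the match or its reverse complement in capitals.
Sec23a (chr12:59011988-59012077, - strand): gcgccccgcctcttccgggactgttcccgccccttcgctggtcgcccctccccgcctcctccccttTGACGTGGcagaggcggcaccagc
Sec24d (chr3:123267436-123267525, + strand): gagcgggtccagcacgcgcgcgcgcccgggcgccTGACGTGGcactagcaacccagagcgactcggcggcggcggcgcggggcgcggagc
Kdelr3 (chr15:79516348-79516437, + strand): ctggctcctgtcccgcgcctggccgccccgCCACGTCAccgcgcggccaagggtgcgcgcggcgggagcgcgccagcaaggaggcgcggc
Copb1 (chr7:114254651-114254740, - strand): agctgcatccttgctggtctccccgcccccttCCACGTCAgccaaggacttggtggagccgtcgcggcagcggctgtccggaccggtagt
Copb2 (chr9:98563671-98563760, + strand): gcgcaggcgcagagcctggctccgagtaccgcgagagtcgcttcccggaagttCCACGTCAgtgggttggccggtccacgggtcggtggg
Stx5a (chr19:8741364-8741453, + strand): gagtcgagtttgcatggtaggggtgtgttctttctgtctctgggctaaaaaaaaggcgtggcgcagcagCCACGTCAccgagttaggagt
Stx5a held a second match outside the stretch shown. The related C/EBP-ATF composite TGATGNAA stood in the promoter of 1 member, Kdelr1, and in 4.06% of all promoters. The ER stress response elements ERSE (CCAAT, 9 bases, CCACG) and ERSE-II (ATTGG, 1 base, CCACG) stood in 0 of the 34, and in 0.13% and 0.037% of all promoters. Any of the 4 motifs was found in 7 of 34 members and in 4.8% of all promoters, and some matches of different motifs can overlap. A match describes the letters in this window only.

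Libraries held between 16.03 and 25.93 M counts. Eif2ak3, the targeted gene, stood at 9.52, 11.8 and 15.9 CPM, the counts scaled to the library total, in TM-treated Perk KO neurons, against 140.2, 134 and 148 CPM in TM-treated WT neurons. In each cell type every Perk KO library lay below every WT library. Mean levels in control neurons were 5.24 CPM in Perk KO and 34.7 CPM in WT cells. In control astrocytes they were 6.83 and 26.2 CPM, and in TM-treated astrocytes 13.7 and 88.3 CPM. Some Eif2ak3 RNA thus remained in every Perk KO group. Markers of neurons summed to 4678 to 5236 CPM in control WT neurons and were all detected, but 8 astrocyte markers summed to 2422 to 2522 CPM there, so that RNA of astrocyte markers was present in the neuron cultures. In astrocyte cultures of the WT control group the same 8 summed to 2207 to 3440 CPM, neuron markers to 283 to 327 CPM and markers of fibroblasts and mural cells to 1085 to 1228 CPM. In bulk samples such as these, fewer cells of a type and less RNA per cell cannot be told apart. A few libraries stood apart from their group for some members. Golgb1 had 186 CPM in replicate 2 of TM-treated Perk KO neurons and 95.5 and 109 CPM in the other 2, and Sec24b had 68.4 CPM in replicate 1 of TM-treated WT astrocytes and 136 and 137 CPM in the others. Results that changed without such a library are given with that value.

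Under TM, WT neurons carried about 2-fold more RNA of the transport genes. The 38 detected members and Arf4 together made up 8456, 8215 and 8325 CPM in TM-treated WT neurons, against 4325, 4236 and 4116 CPM in control WT neurons. Of the 38, 32 rose, 1 fell and 5 did not pass an adjusted p of 0.05 in edgeR's quasi-likelihood test over 15546 genes. Over all genes tested, 27% rose and 24.8% fell. The median log2 change of the members was 0.83, and that of all genes 0.04. Of the members, 16 rose more than 2-fold. Counts of rises over 2-fold and counts at an unadjusted p under 0.05, here and below, were not made over all genes.

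**Figure D1:**
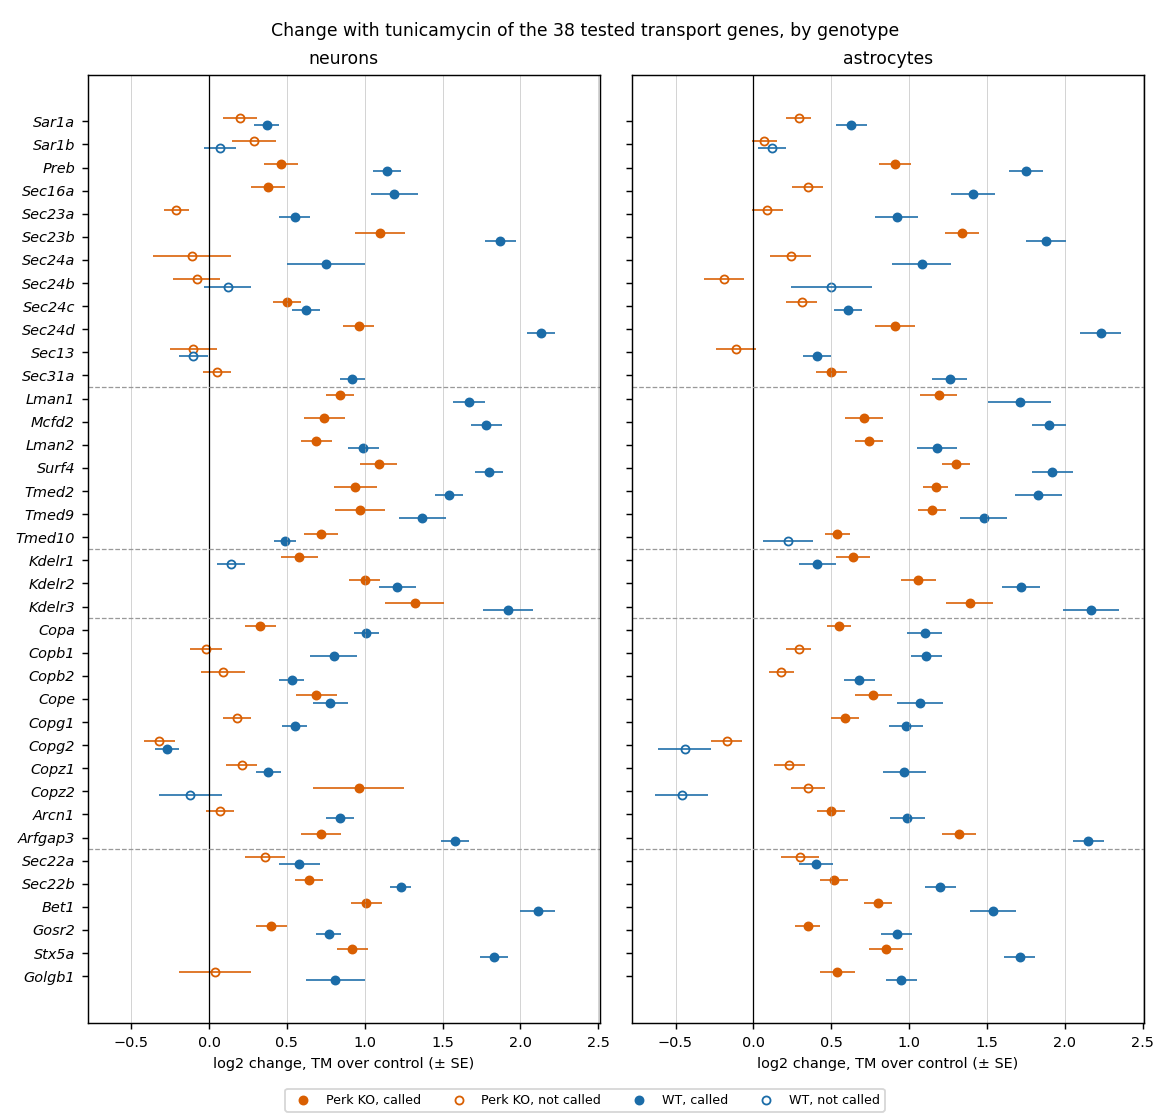
Log2 change under TM (points, with the standard error as bars) of the 38 tested members, grouped by role, in neurons (left panel) and astrocytes (right panel), for Perk KO cells and WT cells. Filled points passed an adjusted p of 0.05. In WT cells 32 members rose in neurons and 33 in astrocytes, and in both panels 34 of 38 had a smaller log2 change in Perk KO cells than in WT cells.

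Of the 12 genes of the COPII coat and its assembly, 9 rose in WT neurons and 3 did not pass. The cargo-binding subunit Sec24d had 157, 159 and 168 CPM in TM-treated WT neurons, against 36.8, 37.5 and 33.3 CPM in control WT neurons, a log2 change of 2.13 ± 0.09, adjusted p = 6.76e-07. Its partner Sec23b, which also drives GTP hydrolysis by Sar1, had 280.4, 259.8 and 253 CPM with TM, against 75.7, 73.5 and 63 CPM in controls (1.87 ± 0.10, adjusted p = 1.86e-06). These were the steepest rises among the coat genes, while their paralogues moved less. Sec23a rose by 0.55 ± 0.10, Sec24c by 0.62 ± 0.09 and Sec24a by 0.75 ± 0.25 on the log2 scale. Sec24b, the fourth Sec24, had 46.4, 52.2 and 60.5 CPM with TM, against 41, 45.8 and 56.1 CPM in controls, with overlapping groups (adjusted p = 0.51). The call of Sec24a did not hold in 5 of the 6 fits that left out 1 library, with adjusted p of 0.000195 to 0.105 over all 6.

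The exit-site scaffold Sec16a and the Sar1 activator Preb rose more than 2-fold in WT neurons. Sec16a had 134, 151 and 184 CPM with TM, against 56.1, 66.9 and 78.6 CPM in controls (1.19 ± 0.15, adjusted p = 0.000293). Preb had 179.6, 164 and 163 CPM with TM, against 82.3, 70.9 and 70.8 CPM in controls (1.14 ± 0.09, adjusted p = 2.01e-05). In both genes all TM libraries lay above all control libraries. The outer coat subunits differed, with Sec31a at 0.92 ± 0.08 and its partner Sec13 at -0.10 ± 0.09 (adjusted p = 4.12e-05 and 0.389). Of the GTPases, Sar1a rose by 0.37 ± 0.08, and Sar1b was at 0.07 ± 0.10 without passing. In Preb, 21.8% of the exon bases overlap those of Abhd1, and since the libraries were unstranded the reads of such genes cannot be told apart.

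All 7 cargo receptors rose in WT neurons, 5 of them more than 2-fold, with a median log2 change of 1.54. Surf4, a receptor for soluble secreted proteins, had 564, 531 and 557 CPM in TM-treated WT neurons, against 162, 159 and 141 CPM in control WT neurons (1.80 ± 0.09, adjusted p = 1.32e-06). Lman1 and Mcfd2, which form a cargo receptor complex for secreted coagulation factors, changed by nearly the same amount. Lman1 had 211, 212 and 205 CPM with TM, against 62.1, 57.9 and 72.4 CPM in controls (1.67 ± 0.10). Mcfd2 had 308, 285 and 284 CPM with TM, against 94.8, 80.8 and 74.3 CPM in controls (1.78 ± 0.10). Of the p24 proteins, Tmed2 rose by 1.54 ± 0.09 and Tmed9 by 1.37 ± 0.15, and Tmed10 by 0.49 ± 0.07. Lman2, a lectin of the early secretory route, rose by 0.99 ± 0.10.

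The 3 KDEL receptors, which return chaperones to the ER, did not move alike. Kdelr3 had 27.5, 24 and 28.4 CPM in TM-treated WT neurons, against 6.92, 7.9 and 5.8 CPM in control WT neurons, a rise of 1.92 ± 0.16, adjusted p = 2.26e-05. Kdelr2 rose by 1.21 ± 0.12. Kdelr1 had 65.3, 64 and 72.9 CPM with TM, against 58.7, 61.6 and 58.9 CPM in controls, and did not pass (0.14 ± 0.09, adjusted p = 0.226). The groups of Kdelr1 lay next to each other without overlap.

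Of the 10 tested genes of the COPI coat and Arf cycle, 8 rose in WT neurons, 1 fell and 1 did not pass. Arfgap3, which makes Arf hydrolyse GTP so that the coat is shed, had 88.9, 85 and 85.4 CPM with TM, against 28.6, 29.4 and 26.4 CPM in controls (1.58 ± 0.09, adjusted p = 3.01e-06). Copa, the alpha subunit of the coat, had 871, 843 and 859.8 CPM with TM, against 426, 433 and 385 CPM in controls (1.01 ± 0.08, adjusted p = 1.88e-05). Coat subunits rose by between 0.38 (Copz1) and 1.01 (Copa) on the log2 scale, less than most cargo receptors. The paralogues Copg2 and Copz2 did not rise with Copg1 and Copz1. Copg2 had 75.4, 71.1 and 73.5 CPM with TM, against 89.1, 82.8 and 88.2 CPM in controls (-0.27 ± 0.08, adjusted p = 0.0176), a fall that did not pass without replicate 1 or without replicate 2 of TM-treated WT neurons (adjusted p = 0.053 and 0.0766). Copz2 was at -0.12 ± 0.20 with adjusted p = 0.641. In Copg2, 17.8% of the exon bases overlap those of Mest on the opposite strand.

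All 6 SNARE and tether genes rose in WT neurons. Bet1 had 84, 87.2 and 80.8 CPM in TM-treated WT neurons, against 18.3, 17 and 21.7 CPM in control WT neurons (2.11 ± 0.11, adjusted p = 2.43e-06). The Golgi syntaxin Stx5a had 179, 171 and 181 CPM with TM, against 52.5, 47.9 and 45.7 CPM in controls (1.83 ± 0.09, adjusted p = 1.32e-06). Neither gene's groups overlapped. Sec22b rose by 1.23 ± 0.07, Gosr2 by 0.77 ± 0.08, the giantin gene Golgb1 by 0.81 ± 0.19 and Sec22a, a relative of Sec22b, by 0.58 ± 0.13. Markers of other cell types moved in the same comparison. Astrocyte markers summed to 803 to 857 CPM in TM-treated WT neurons and 2422 to 2522 CPM in control WT neurons, with 7 of 8 lower, and neuron markers to 2378 to 2657 and 4678 to 5236 CPM, with 7 of 8 lower. Their part in the result was not tested.

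**Figure D2:**
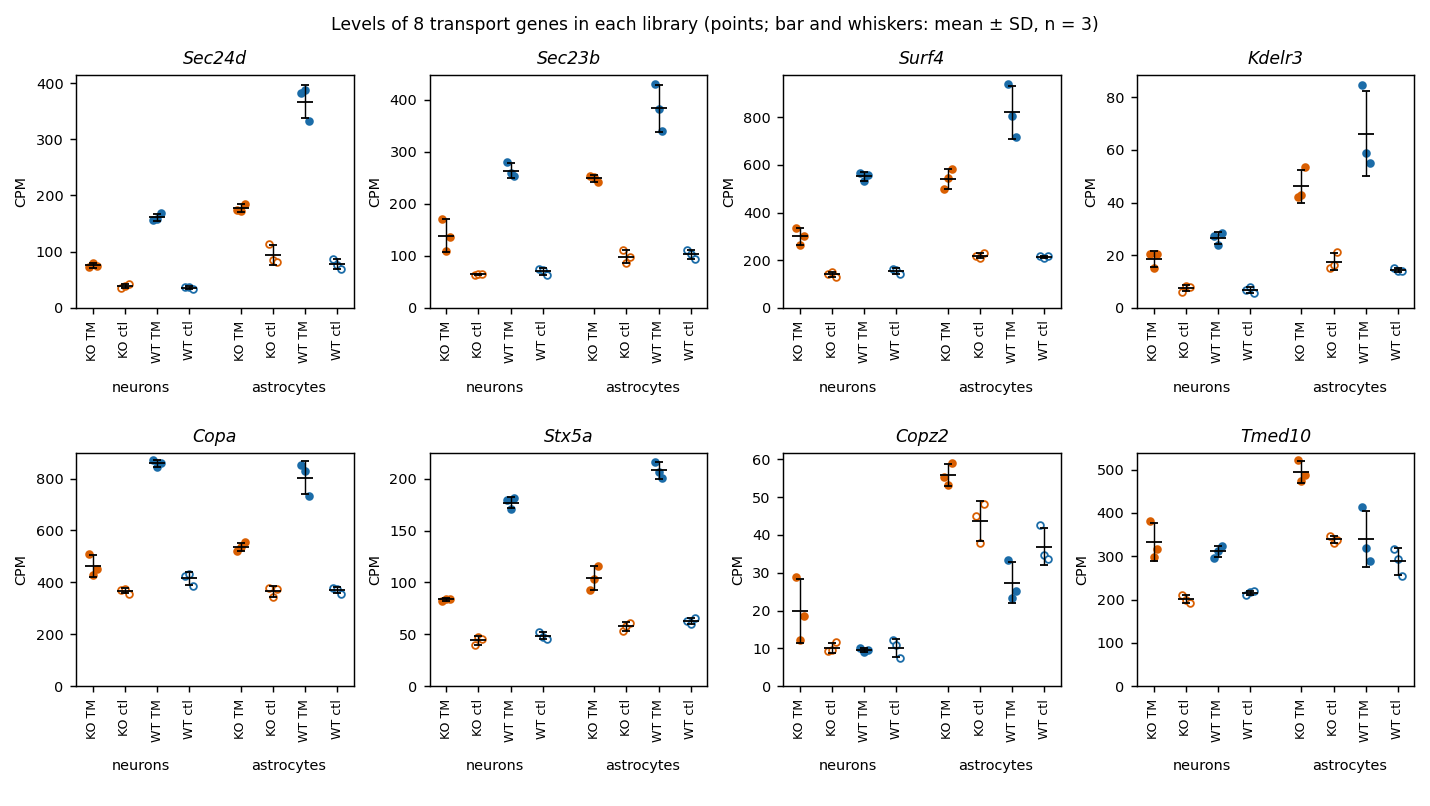
Level in CPM of 8 members in each library (points) and the group mean (line), for neurons and astrocytes, with TM-treated and control Perk KO cells left of TM-treated and control WT cells. CPM are scaled within a cell type. Sec24d, Sec23b, Surf4, Kdelr3 and Stx5a are high with TM and highest in WT cells, while Tmed10 and Copz2 are as high or higher in TM-treated Perk KO cells.

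In WT astrocytes too the transport genes took up more of the RNA under TM. The members made up 12052, 11098 and 10219.8 CPM in TM-treated WT astrocytes, against 4960.2, 4919 and 4735 CPM in control WT astrocytes. In edgeR's quasi-likelihood test 33 of 38 rose, 0 fell and 5 did not pass, and 35 had an unadjusted p under 0.05, of which Copg2 and Copz2 were lower. DESeq2 called 0 members lower. Over all genes tested, 25% rose and 27.7% fell. The median log2 change was 1.09 for members and -0.01 for all genes, and 21 members rose more than 2-fold.

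Sec24d had 382, 387 and 333 CPM in TM-treated WT astrocytes, against 87, 75.6 and 69.4 CPM in control WT astrocytes (2.23 ± 0.13, adjusted p = 2.48e-05). Of the 12 COPII genes 10 rose, and these included Sec13 at 0.41 ± 0.09. Preb had 191, 181 and 179 CPM with TM, against 52, 50 and 59.6 CPM in controls (1.75 ± 0.11, adjusted p = 2.61e-05). Sec24b had 68.4, 136 and 137 CPM with TM, against 63.5, 79.6 and 93.8 CPM in controls, with overlapping groups (0.50 ± 0.26, adjusted p = 0.138). The low TM library of Sec24b was replicate 1, and without it the change was 0.78, adjusted p = 0.0042.

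Of the cargo receptors 6 of 7 rose in WT astrocytes, all of them more than 2-fold. Mcfd2 had 502, 456 and 437 CPM with TM, against 112, 127 and 130.1 CPM in controls (1.90 ± 0.11, adjusted p = 2.5e-05), and Surf4 rose by 1.92 ± 0.13. Tmed10 was the exception, at 413, 318 and 289 CPM with TM, against 317, 293 and 255 CPM in controls (0.22 ± 0.16, adjusted p = 0.287). All 3 KDEL receptors rose, Kdelr3 by 2.17 ± 0.18, Kdelr2 by 1.72 ± 0.12 and Kdelr1 by 0.41 ± 0.12. The call of Kdelr1 was lost without replicate 2 or without replicate 3 of control WT astrocytes (adjusted p = 0.0734 and 0.0579).

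In the COPI group 8 of 10 rose in WT astrocytes, led by Arfgap3 with 102, 105 and 94.8 CPM with TM, against 22.8, 21 and 23.2 CPM in controls (2.15 ± 0.10, adjusted p = 1.61e-05). The other 2 were again Copg2 and Copz2. Copg2 was at 68.3, 47.3 and 50.4 CPM with TM, against 83, 73.5 and 66.3 CPM in controls (-0.44 ± 0.17, adjusted p = 0.0534). Copz2 was at 33.4, 23.3 and 25.1 CPM with TM, against 42.5, 34.7 and 33.7 CPM in controls (-0.46 ± 0.17, adjusted p = 0.054). Replicate 1 was the highest TM library in both. Same-numbered astrocyte libraries deviated together, and with the replicate number as a block both passed as lower (Copg2 -0.46, adjusted p = 0.00156, and Copz2 -0.47, adjusted p = 0.00159), while Sec24b (0.00926) and Tmed10 (0.0425) passed as higher by that adjusted p. All 6 SNARE and tether genes rose, Stx5a by 1.71 ± 0.10 and Bet1 by 1.54 ± 0.15. The call of Sec22a was lost without replicate 2 of the TM-treated or of the control WT astrocytes (adjusted p = 0.0622 and 0.0602). Astrocyte markers summed to 629 to 709 CPM in TM-treated WT astrocytes and 2207 to 3440 CPM in control WT astrocytes, with 6 of 8 lower, and markers of fibroblasts and mural cells to 345 to 441 and 1085 to 1228 CPM. Markers of the oligodendrocyte lineage summed to 86.8 to 91.5 CPM with TM and 301 to 337 CPM in controls, with 3 of 5 tested lower. Of the 8 listed, Sox10 had 0 counts in TM-treated WT astrocytes. The part of these shifts in the result was not tested.

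Perk KO cells also responded to TM, with fewer members called and smaller changes. In Perk KO neurons the members made up 5864, 5042 and 5382 CPM with TM, against 4019.9, 4064 and 3908 CPM in controls, and 23 of 38 rose, 0 fell and 15 did not pass. At an unadjusted p under 0.05 the count was 26, and DESeq2 called 0 lower. Over all genes tested, 13.1% rose and 10.8% fell. The median log2 change was 0.48 for members and 0.02 for all genes, and 5 members rose more than 2-fold. Neuron markers summed to 2432 to 2805 CPM in TM-treated Perk KO neurons and 4007 to 4372 CPM in control Perk KO neurons, with 7 of 8 lower, and 4 of 7 microglia markers were lower. Astrocyte markers summed to 2642 to 3187 and 3199.7 to 3433 CPM, with 3 of 8 higher and 1 lower, and the part of these markers in the result was not tested.

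In Perk KO astrocytes the members made up 7378, 7562 and 7712 CPM with TM, against 4950.2, 4743 and 4918 CPM in controls. Of the 38, 24 rose, 0 fell and 14 did not pass, where over all genes tested 5.55% rose and 4.6% fell. At an unadjusted p under 0.05 the count was 32, and DESeq2 called 0 lower. The median log2 change was 0.54 for members and 0.00 for all genes, and 8 members rose more than 2-fold. With the replicate block 32 members rose in Perk KO astrocytes, where 14.4% of all genes rose and 13.8% fell. The 8 added were Sec16a, Sec22a, Sec24c, Sar1a, Copb1, Copb2, Copz1 and Copz2. Astrocyte markers summed to 1801 to 2475 CPM in TM-treated Perk KO astrocytes and 2983 to 4089.8 CPM in control Perk KO astrocytes, with 2 of 8 lower, and their part in the result was not tested.

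All 7 cargo receptors and all 3 KDEL receptors rose in Perk KO neurons and in Perk KO astrocytes. Of the 12 COPII genes 5 rose in Perk KO neurons and 4 in Perk KO astrocytes, and of the 10 COPI genes 4 and 5. With the replicate block 7 of 12 COPII and 9 of 10 COPI genes rose in Perk KO astrocytes, and differences between roles were not tested. Surf4 had 334, 264 and 302 CPM in TM-treated Perk KO neurons, against 142, 150.1 and 129.8 CPM in control Perk KO neurons (1.09 ± 0.12, adjusted p = 0.00091). In astrocytes it had 499, 544 and 581 CPM in TM-treated Perk KO cells, against 217, 209 and 229.9 CPM in their controls (1.30 ± 0.09, adjusted p = 5.59e-05). The outer coat gene Sec31a had 101, 104 and 95.4 CPM in TM-treated Perk KO neurons, against 93.4, 96.9 and 99.9 CPM in control Perk KO neurons, with overlapping groups (0.05 ± 0.09, adjusted p = 0.723). The COPI subunit Arcn1 had 249, 222 and 219 CPM in TM-treated Perk KO neurons, against 222, 215 and 219 CPM in control Perk KO neurons (0.07 ± 0.09, adjusted p = 0.598). Both had risen in WT neurons, by 0.92 and 0.84 on the log2 scale.

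Some Perk KO calls rested on single libraries. In neurons 17 of 23 calls held in each of the 6 fits that left out 1 library. Copa, Copz2 and Sec16a did not pass in 5 of the 6, Gosr2 and Preb in 4 and Kdelr1 in 2, and their adjusted p reached 0.162, 0.153, 0.155, 0.096, 0.0927 and 0.0591. Golgb1, at 0.04 ± 0.23 with all libraries, passed as lower (-0.31, adjusted p = 0.0411) without replicate 2 of TM-treated Perk KO neurons. In astrocytes 20 of 24 held. Gosr2 did not pass in 5 of 6 (adjusted p up to 0.119). Without replicate 2 of TM-treated Perk KO astrocytes Arcn1 (0.05), Golgb1 (0.0653) and Sec31a (0.0542) did not pass by that adjusted p, and Sec31a also not without replicate 2 of their controls (0.0597).

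The difference between the responses of Perk KO and WT cells was tested as the interaction of genotype and TM, on 12 libraries of a cell type. In neurons 20 of 38 members had a lower log2 response in Perk KO cells, 1 a higher one and 17 did not pass, where over all genes tested 15.4% were lower and 14.5% higher. The median interaction was -0.63 for members and -0.08 for all genes. Of astrocyte markers 7 of 8 and of markers of the oligodendrocyte lineage 5 of 8 had a higher response in Perk KO neurons in the same test, and their part in the result was not tested. The 4 largest called interactions among the members were Sec24d at -1.21 ± 0.12, Bet1 at -1.13 ± 0.14, Mcfd2 at -1.07 ± 0.17 and Stx5a at -0.94 ± 0.12 (adjusted p = 2.66e-05, 0.000144, 0.000691 and 0.000154). With a correction for GC content 5 of the 21 calls did not pass, those of Bet1, Copb2, Sec22b, Sec23b and Tmed2, while 3 other members passed. Sec23a, whose promoter holds the TGACGTGG element, had 149.9, 157 and 163 CPM in TM-treated Perk KO neurons and 184, 184 and 176 CPM in their controls, beside 218, 233 and 201 CPM in TM-treated WT neurons and 138, 135 and 162 CPM in theirs (interaction -0.80 ± 0.12, adjusted p = 0.00053). The 1 higher response was that of Kdelr1, at 0.41 ± 0.14, adjusted p = 0.0449, which did not pass in 10 of the 12 fits that left out 1 library. Copb2 did not pass in 11 of 12 (adjusted p up to 0.127) and Gosr2 in 4 of 12 (up to 0.0674).

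In astrocytes 27 of 38 members had a lower response in Perk KO cells, 1 a higher one and 10 did not pass, beside 14.6% lower and 19.8% higher over all genes tested. The median interaction was -0.57 for members and 0.01 for all genes. Of astrocyte markers 3 of 8, of oligodendrocyte lineage markers 3 of 6 and of fibroblast and mural cell markers 2 of 6 had a higher response in Perk KO astrocytes, and their part in the result was not tested. Sec24d was again the lowest, at -1.33 ± 0.18, adjusted p = 0.000226. Mcfd2 was at -1.20 ± 0.17 and Sec16a at -1.07 ± 0.18. The 1 higher response was that of Copz2, at 0.80 ± 0.21, adjusted p = 0.0108, and it held in all 12 fits that left out 1 library. Copg1, Golgb1, Kdelr3, Lman2, Sar1a, Sec13 and Sec23b did not pass in 1 to 6 of those 12, with a highest adjusted p of 0.0753 (Copg1). With the replicate block Sec24b, Sec24c and Lman1 were called lower as well (adjusted p = 0.0116, 0.0356 and 0.00329).

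Set directly against TM-treated WT cells, TM-treated Perk KO cells had less RNA of most members. In neurons 23 of 38 were lower, 2 higher and 13 did not pass, where over all genes tested 19.4% were lower and 20.7% higher. The median log2 difference was -0.49 for members and 0.02 for all genes. Mcfd2 had 122, 90.8 and 109 CPM in TM-treated Perk KO neurons, against 308, 285 and 284 CPM in TM-treated WT neurons (-1.38 ± 0.13, adjusted p = 0.000154). Sec31a had 101, 104 and 95.4 CPM in TM-treated Perk KO neurons, against 193, 201 and 216 CPM in TM-treated WT neurons (-0.96 ± 0.09, adjusted p = 0.000165). For both the 2 groups were well apart.

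The members higher in TM-treated Perk KO neurons were Copz2 and Sar1b. Copz2 had 28.8, 12.3 and 18.5 CPM in TM-treated Perk KO neurons, against 10.2, 9.11 and 9.49 CPM in TM-treated WT neurons (1.12 ± 0.29, adjusted p = 0.0162), and did not pass without replicate 2 or without replicate 3 of the WT group (adjusted p = 0.0569 and 0.0572). Sar1b had 154, 107 and 138 CPM in TM-treated Perk KO neurons, against 114, 97.7 and 94.6 CPM in TM-treated WT neurons (0.45 ± 0.15, adjusted p = 0.047). Its groups overlapped, and it did not pass in 4 of the 6 fits that left out 1 library. Copb1 did not pass in 3 of 6, Copb2 and Tmed9 in 4 and Sec23a in 1, with highest adjusted p of 0.0715, 0.0895, 0.0867 and 0.0505. Same-numbered libraries of these 2 groups deviated together. With the replicate block Sec24c (-0.26), Sar1a (-0.33), Kdelr2 (-0.31), Kdelr3 (-0.46) and Cope (-0.35) also passed as lower by their log2 difference, and Kdelr1 (0.36) as higher. All 8 astrocyte markers were higher in the same comparison, summing to 2642 to 3187 CPM in TM-treated Perk KO neurons and 803 to 857 CPM in TM-treated WT neurons, and their part in the result was not tested.

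In astrocytes 28 of 38 members were lower in TM-treated Perk KO cells than in TM-treated WT cells, 4 were higher and 6 did not pass. The background was high here, with 31.2% of all genes lower and 32.1% higher, and the median log2 difference was -0.53 for members and 0.01 for all genes. Sec16a had 115, 122 and 123 CPM in TM-treated Perk KO astrocytes, against 248, 323 and 292 CPM in TM-treated WT astrocytes (-1.24 ± 0.12, adjusted p = 5.04e-05). Mcfd2 had 142, 175 and 191 CPM in TM-treated Perk KO astrocytes, against 502, 456 and 437 CPM in TM-treated WT astrocytes (-1.43 ± 0.13, adjusted p = 3.87e-05). Of the COPII genes 10 of 12 were lower, and of the cargo receptors 4 of 7.

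The 4 members higher in TM-treated Perk KO astrocytes were Copz2, Tmed10, Kdelr1 and Copg2. Copz2 had 55.4, 53.3 and 59.1 CPM in TM-treated Perk KO astrocytes, against 33.4, 23.3 and 25.1 CPM in TM-treated WT astrocytes (1.06 ± 0.15, adjusted p = 0.000319). Tmed10 had 522, 474 and 488 CPM in TM-treated Perk KO astrocytes, against 413, 318 and 289 CPM in TM-treated WT astrocytes (0.56 ± 0.14, adjusted p = 0.00729). Both held in every fit that left out 1 library. Kdelr1 (0.39 ± 0.13) and Copg2 (0.42 ± 0.15) had overlapping groups and did not pass in 4 and 5 of those 6 fits, with adjusted p up to 0.101 and 0.141. Kdelr3 and Lman2 each lost their lower call in 3 of 6 (adjusted p up to 0.115 and 0.0701). With the replicate block Lman1 was lower too (-0.38, adjusted p = 0.0128). Of 8 astrocyte markers 7 were higher in this comparison, at a sum of 1801 to 2475 CPM in TM-treated Perk KO astrocytes and 629 to 709 CPM in TM-treated WT astrocytes, and their part in the result was not tested.

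**Figure D3:**
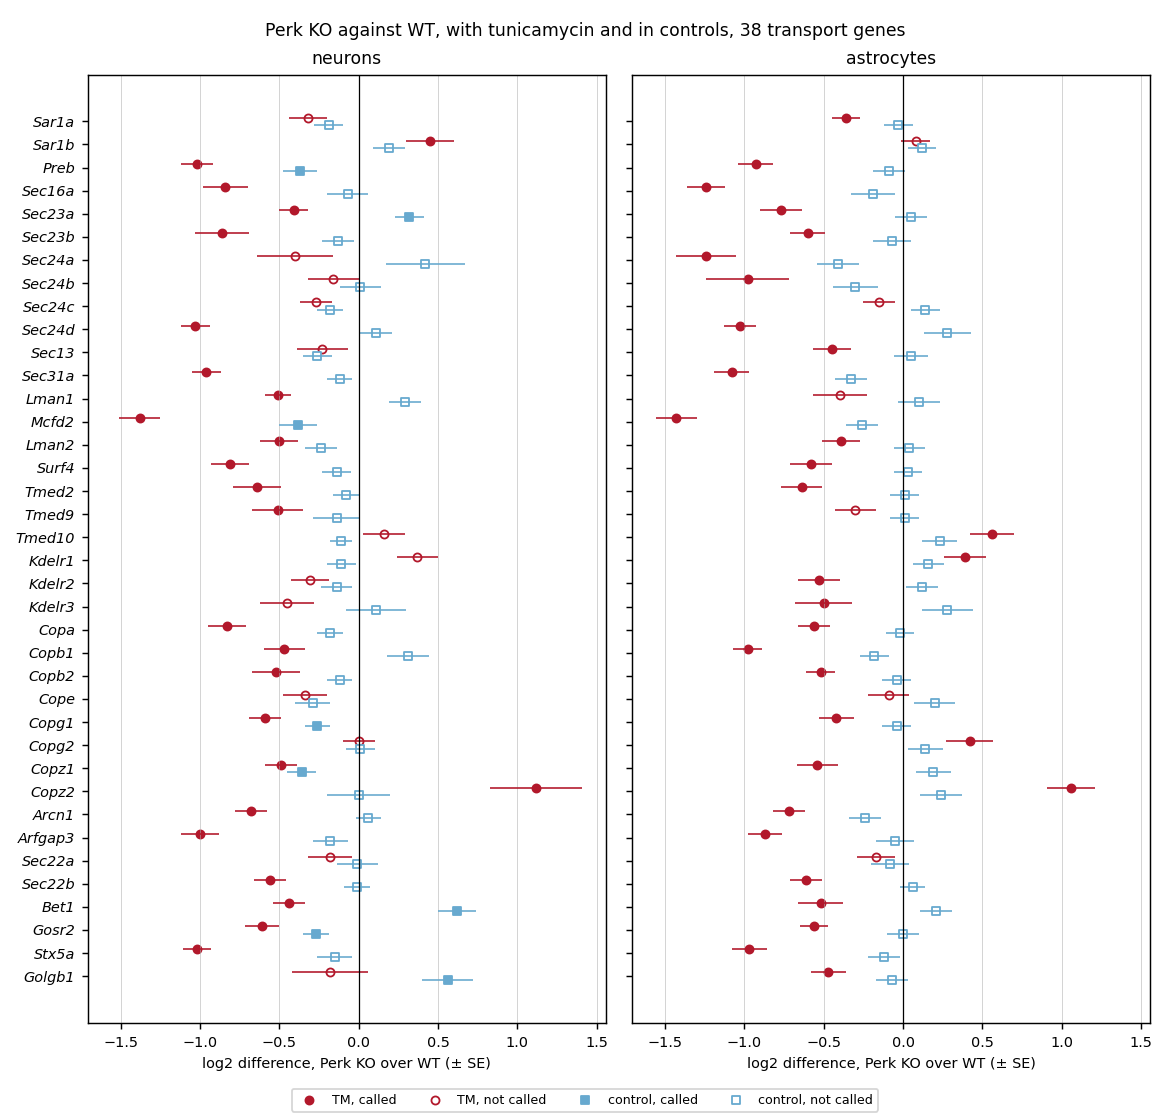
Log2 difference between Perk KO and WT cells (points, with the standard error as bars) of the 38 tested members in neurons (left) and astrocytes (right), with TM (circles) and in controls (squares). Filled symbols passed an adjusted p of 0.05. With TM 23 members were lower in Perk KO neurons and 28 in Perk KO astrocytes, and the control values lie closer to 0.

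Without TM the differences between genotypes were small. In control neurons 5 of 38 members were lower in Perk KO cells, 3 were higher and 30 did not pass, where over all genes tested 9.16% were lower and 12.2% higher, so that the members' counts were near the background. Without replicate 3 of control Perk KO neurons 136 of all genes were higher and 121 lower, beside 1927 and 1443 with all libraries. The higher ones were Bet1 (0.62 ± 0.12), Golgb1 (0.56 ± 0.16) and Sec23a (0.32 ± 0.09). The lower ones were Mcfd2 (-0.38 ± 0.12), Preb (-0.37 ± 0.11), Copz1 (-0.36 ± 0.09), Gosr2 (-0.27 ± 0.08) and Copg1 (-0.26 ± 0.08). Bet1 had 30.8, 28.7 and 28.6 CPM in control Perk KO neurons, against 18.3, 17 and 21.7 CPM in control WT neurons, without overlap. None of the 8 calls held in every fit that left out 1 library: Bet1 failed in 3 of 6 and each of the other 7 in 5 of 6. With the replicate block all 8 calls held and Lman1 and Lman2 were added, while 2608 of all genes were higher and 2192 lower. With a correction for GC content Sec23a and Bet1 changed sign (-0.09 and -0.26). With that correction and the replicate block a larger share of the members than of all genes was lower (2268 of 15757 genes). Astrocyte markers summed to 3199.7 to 3433 CPM in control Perk KO neurons and 2422 to 2522 CPM in control WT neurons, with 4 of 8 higher, and their part in the result was not tested.

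In control astrocytes 0 members passed in either direction by edgeR's quasi-likelihood test, and 4 had an unadjusted p under 0.05. DESeq2 called 2 lower and 0 higher. Over all genes tested, 10.2% were lower and 4.71% higher, and the median log2 difference of the members was 0.01. The counts over all genes rested on single libraries. With all libraries 716 genes were higher and 1544 lower, without replicate 2 of control WT astrocytes 3 and 47, and without replicate 1 of that group 1767 and 2371. Without each of the other 4 libraries in turn 46 to 297 were higher and 360 to 914 lower. The members made up 4950.2, 4743 and 4918 CPM in control Perk KO astrocytes and 4960.2, 4919 and 4735 CPM in control WT astrocytes. With the replicate block 2 were higher and 5 lower, beside 18.1% and 19.6% of all genes, so that these counts too were not above the background. Sec24d (0.27) and Tmed10 (0.23) were the higher ones, and Sec24a (-0.40), Sec31a (-0.33), Sec24b (-0.28), Mcfd2 (-0.26) and Arcn1 (-0.24) the lower ones on the log2 scale.

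The TM responses of WT neurons and WT astrocytes, which share no library, ran in parallel over the members. Pearson's r was 0.92 and Spearman's rho 0.93 over the 38 log2 changes, a description of 1 pair of comparisons whose points share their libraries. The difference between the cell types was tested as their interaction with TM on the 12 WT libraries. The response was lower in neurons than in astrocytes for 9 of 38 members, higher for 0, and did not pass for 29. DESeq2 called 0 higher too, and 16 members had an unadjusted p under 0.05. Over all genes tested, 12.5% were lower and 12.4% higher. The median was -0.33 for members and -0.02 for all genes.

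**Figure D4:**
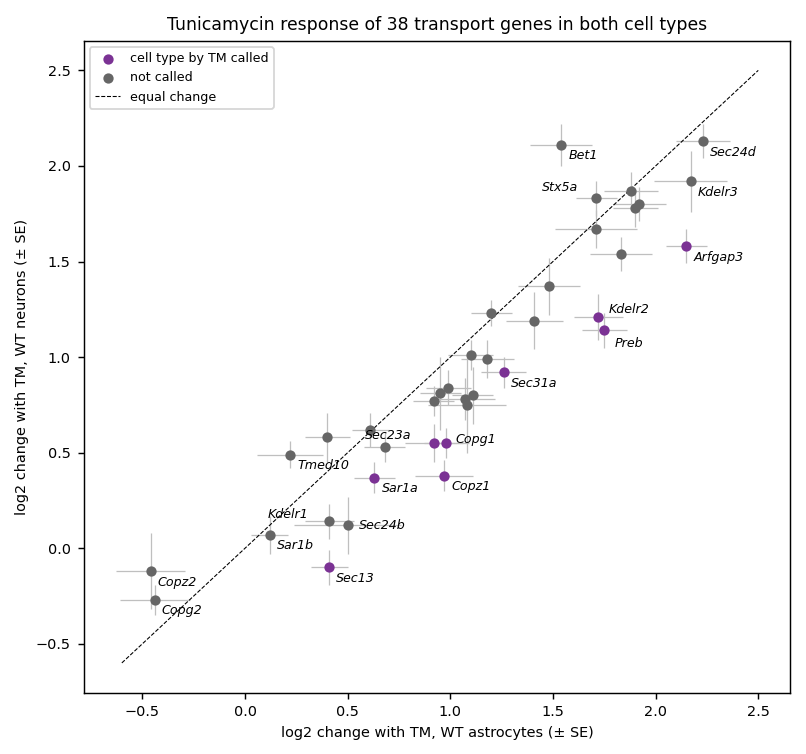
Log2 change under TM of the 38 tested members in WT neurons (y axis) against WT astrocytes (x axis), 1 point per gene, coloured by whether the interaction test called it. Most points lie below the diagonal of equal change, and 9 members had a lower response in neurons by the interaction test.

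The 9 members were Preb (-0.78 ± 0.14), Copz1 (-0.76 ± 0.17), Arfgap3 (-0.74 ± 0.14), Kdelr2 (-0.69 ± 0.17), Sec13 (-0.68 ± 0.13), Copg1 (-0.61 ± 0.14), Sec23a (-0.55 ± 0.17), Sec31a (-0.51 ± 0.14) and Sar1a (-0.43 ± 0.13). By role they were 5 COPII genes, 3 COPI genes and 1 KDEL receptor, and differences between roles were not tested. Sec23a did not pass in 8 of the 12 fits that left out 1 library, Sar1a in 6 and Sec31a in 2, with adjusted p up to 0.0855, 0.066 and 0.103. Without the filter on low counts 4 of the members passed as lower. Whether the effect of genotype on the TM response differed between the cell types was tested on all 24 libraries. In this 3-way test 0 members passed in either direction, 3 had an unadjusted p under 0.05, and DESeq2 called 1 higher and 0 lower. Over all genes 2.08% were higher and 3.43% lower. The lowest adjusted p among the members was that of Copz1 (0.68 ± 0.22, 0.0698).

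Several subunits are made by paralogues, whose shares are given here without a test. Levels of different genes are compared here in CPM per kilobase of gene length. Sec24d made up 28.9% ± 1.23 (SD, n = 3) of the summed Sec24 level in TM-treated Perk KO neurons and 20.3% ± 0.779 in their controls, and 41.2% ± 1.48 in TM-treated and 18.3% ± 1.93 in control WT neurons. In astrocytes it was 44.7% ± 2.01 in TM-treated and 32% ± 3.54 in control Perk KO cells, and 53.2% ± 5.28 in TM-treated and 27.3% ± 4.25 in control WT cells. Sec24c made up 23.2% ± 1.29 in TM-treated and 36.3% ± 1.01 in control WT astrocytes, and 40.7% ± 0.772 in TM-treated and 51.7% ± 2.55 in control WT neurons. In Perk KO astrocytes Sec24c made up 35.6% ± 0.277 with TM and 39.2% ± 0.578 in controls. In Perk KO neurons it made up 48.6% ± 2.65 with TM and 47% ± 2 in controls. Sec24d was thus above Sec24c in TM-treated astrocytes of both genotypes, level with it in TM-treated WT neurons and below it in the other groups.

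Sec23b made up 40.3% ± 6.06 of the Sec23 level in TM-treated Perk KO neurons and 21.6% ± 0.62 in their controls, and 48.3% ± 1.94 in TM-treated and 27.4% ± 3.82 in control WT neurons. In astrocytes it was 67.5% ± 1.53 in TM-treated and 46.4% ± 2.83 in control Perk KO cells, and 64.8% ± 0.598 in TM-treated and 48.7% ± 0.274 in control WT cells. Each share was higher with TM than in its own controls in all 3 libraries. Kdelr1 had a smaller share of the KDEL receptors with TM in both genotypes and cell types. It stood at 44.9% ± 1.99 in TM-treated Perk KO neurons and 53.4% ± 1.44 in their controls, and at 33.3% ± 0.974 in TM-treated and 53.8% ± 1.64 in control WT neurons. In astrocytes it stood at 34.1% ± 2.56 in TM-treated and 42.4% ± 0.0344 in control Perk KO cells, and at 21.5% ± 0.592 in TM-treated and 42.5% ± 1.13 in control WT cells. Copz2 made up 39.4% ± 1.67 of the Copz level in TM-treated Perk KO astrocytes and 37.3% ± 1.8 in their controls, and 17.6% ± 1.22 in TM-treated and 36.6% ± 1.48 in control WT astrocytes. The libraries of the Perk KO groups overlapped. Sar1a stood at 38.3% ± 2.15 of the Sar1 level in TM-treated and 39.6% ± 1.52 in control Perk KO neurons, again with overlap. Its share was higher with TM, without overlap, in WT neurons (51.4% ± 1.23 against 46.1% ± 2.19 in controls). The same held in WT astrocytes (46.2% ± 0.839 against 37.5% ± 0.334) and in Perk KO astrocytes (38.6% ± 0.716 against 35% ± 0.486).

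**Figure D5:**
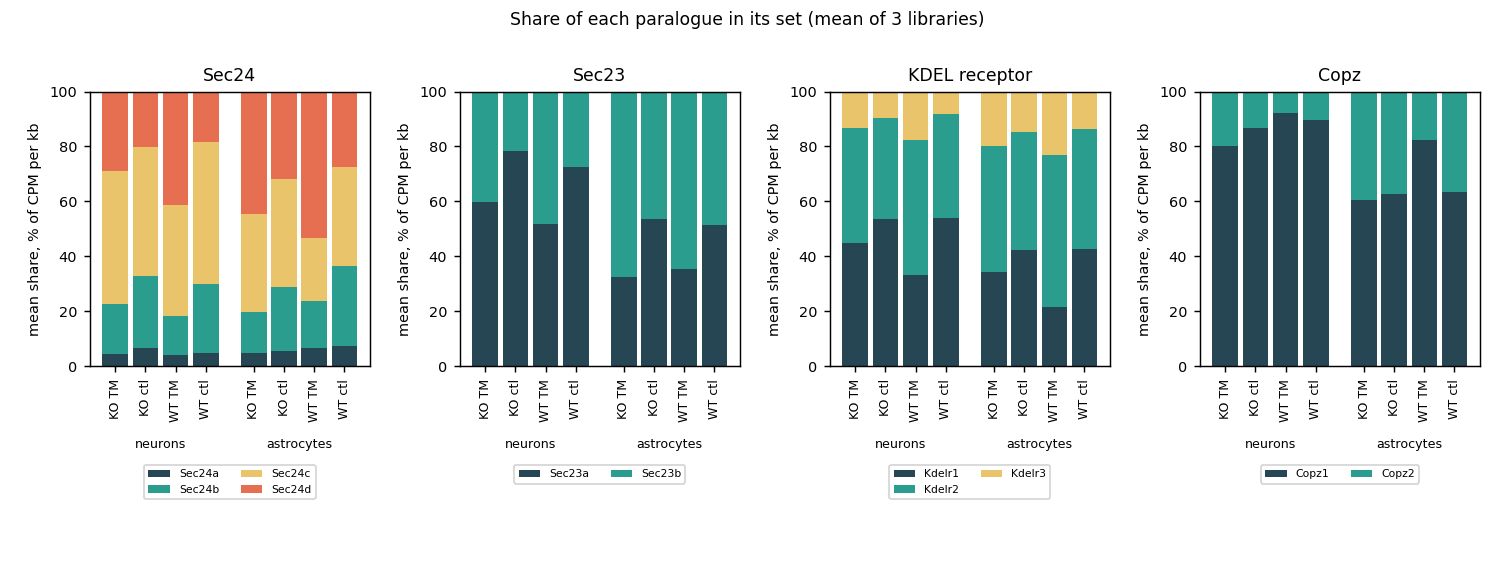
Mean share (stacked bars, n = 3) of each paralogue in the summed level, in CPM per kilobase, of the Sec24, Sec23, KDEL receptor and Copz genes, with TM-treated and control Perk KO cells left of TM-treated and control WT cells of each cell type. The share of Sec24d is largest in TM-treated WT astrocytes, at 53.2%, and that of Copz2 is lowest in TM-treated WT neurons, at 7.74%.

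In the WT control groups 8 of 38 members were higher in neurons, 14 were lower and 16 did not pass, where over all genes tested 35.8% were higher and 35.2% lower, so that the members' counts were near or under the background. Cell type and the way the cultures were prepared cannot be told apart here. Copg1 was higher in neurons by 1.11 ± 0.10 and Sec23a by 0.95 ± 0.12. Copz2 was lower in neurons by 1.71 ± 0.20, Lman1 by 1.04 ± 0.13 and Sec24d by 0.95 ± 0.13 (log2, adjusted p = 6.44e-05, 0.000101 and 0.000136). Of these 22 calls 13 held in each of the 6 fits that left out 1 library. Copa, Sar1a, Surf4, Copg2, Kdelr2, Mcfd2, Sec16a, Sec24b and Sec23b failed in 1 to 4 of the 6. Per kilobase, the levels of the COPI subunits in control WT neurons spanned 44 ± 2.72 (Copa) and 4.59 ± 1.12 (Copz2) CPM (SD, n = 3).

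A list of 61 further genes of ER-Golgi transport, chosen by function, was counted in the same way. Of 59 tested in WT neurons 29 rose with TM, 6 fell and 24 did not pass, with a median log2 change of 0.30, beside 27% of all genes that rose and 24.8% that fell. The called genes with the smallest adjusted p were Nbas (1.83), Tmed3 (1.61), Gorasp2 (1.24) and Uso1 (1.18) among those that rose and Arf3 (-0.98), Rab1b (-1.04), Trappc1 (-0.95) and Arf5 (-0.67) among those that fell, on the log2 scale. Nbas acts in tethering at the ER, Tmed3 is a p24 protein, and Uso1 is the tether p115. Rab1b is a GTPase of ER-Golgi traffic and Trappc1 a subunit of its activator. In WT astrocytes 34 of 60 rose, 7 fell and 19 did not pass, beside 25% and 27.7% of all genes. The smallest adjusted p were those of Uso1 (2.04), Rint1 (1.84), Mia2 (1.47) and Bet1l (1.37) among those that rose and Rab1b (-0.87), Ergic3 (-0.75), Arf3 (-0.43) and Trappc9 (-0.54) among those that fell. In Perk KO neurons 14 of 60 rose and 3 fell, beside 13.1% and 10.8% of all genes. In Perk KO astrocytes 18 of 59 rose and 41 did not pass, where 5.55% of all genes rose.

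Set against TM-treated WT neurons, 22 of 58 of these genes were lower and 4 higher in TM-treated Perk KO neurons, beside 19.4% and 20.7% of all genes. The lowest adjusted p belonged to Nbas (-1.72), Uso1 (-0.93), Gorasp2 (-0.99) and Tfg (-0.82). In TM-treated Perk KO astrocytes 30 of 59 were lower and 12 higher than in TM-treated WT astrocytes, beside 31.2% and 32.1% of all genes, with Mia2 (-1.51), Uso1 (-1.41), Tmed5 (-1.25) and Tfg (-0.99) lowest in adjusted p. Mia2 and Tfg act at ER exit sites. Rab1b was higher in Perk KO cells with TM in both cell types, by 0.62 ± 0.15 in neurons and 0.97 ± 0.11 in astrocytes. Of the 12 genes higher in astrocytes, those next in adjusted p were Ergic3 (0.93), Bcap31 (0.97) and Trappc1 (0.80). Between controls 10 of 60 were lower and 4 higher in Perk KO neurons, beside 9.16% and 12.2% of all genes. Between control astrocytes 2 of 59 were lower in Perk KO cells and 57 did not pass, where 10.2% of all genes were lower. The counts between controls were thus near or under the background, apart from those lower in neurons.

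Of 6 transcription regulators of the ER stress response and the secretory route, all rose with TM in neurons of both genotypes and 5 in astrocytes of both. Creb3l2, a membrane-bound transcription factor known for its action on Sec23a in cartilage cells of mice, had 41, 57.6 and 51.7 CPM in TM-treated Perk KO neurons, against 22.2, 29.2 and 36.8 CPM in control Perk KO neurons (0.77 ± 0.20). In WT neurons it had 64.3, 74.2 and 88.6 CPM with TM, against 19.7, 23.1 and 27.2 CPM in controls (1.67 ± 0.16). Atf6 rose by 0.79 ± 0.10 in Perk KO neurons and by 2.06 ± 0.09 in WT neurons, and by 0.85 ± 0.11 in Perk KO astrocytes and 2.12 ± 0.13 in WT astrocytes. Xbp1 rose by 1.10 ± 0.11 in Perk KO and 1.75 ± 0.10 in WT neurons, and by 1.89 ± 0.14 in Perk KO and 2.57 ± 0.20 in WT astrocytes. Atf4, whose translation Perk is known to favour, rose by 0.96 ± 0.12 in Perk KO and 1.61 ± 0.08 in WT neurons, and by 0.97 ± 0.23 in Perk KO and 1.82 ± 0.19 in WT astrocytes. Its known target Ddit3 rose by 2.96 ± 0.16 in Perk KO and 4.45 ± 0.10 in WT neurons, and by 1.67 ± 0.28 in Perk KO and 2.88 ± 0.22 in WT astrocytes. Creb3l1, a relative of Creb3l2, rose by 0.98 ± 0.16 in Perk KO and 1.62 ± 0.18 in WT neurons, but did not pass in astrocytes (0.47 ± 0.24 in Perk KO and 0.48 ± 0.25 in WT). Creb3l2 rose by 0.90 ± 0.12 in Perk KO and 1.88 ± 0.13 in WT astrocytes. The chaperone gene Hspa5, known to rise under ER stress, had 2768, 2157 and 2645 CPM in TM-treated Perk KO neurons, against 507, 528 and 482 CPM in control Perk KO neurons. In WT neurons it had 11332, 10601 and 10211 CPM with TM, against 539.9, 519 and 533 CPM in controls. Hspa5 thus rose in both genotypes, by 2.32 ± 0.13 in Perk KO and 4.30 ± 0.10 in WT neurons on the log2 scale. In the interaction test of genotype and TM, Atf6, Creb3l2 and Ddit3 had a lower response in Perk KO cells of both cell types. Xbp1 and Atf4 did so in neurons only. In astrocytes they were at -0.69 ± 0.26 and -0.86 ± 0.34 without passing (adjusted p = 0.0577 and 0.0647). Creb3l1 passed in neither. Between control astrocytes, Xbp1 (-0.86), Atf6 (-0.64), Atf4 (-1.38) and Ddit3 (-1.46) were already lower in Perk KO cells on the log2 scale. Creb3l1 and Creb3l2 did not pass there. Whether these regulators act on the members was not tested.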

How the data were processed

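RNA of 24 libraries was sequenced. The tools named in the submitters' processing notes are fastp, HISAT2, featureCounts and DESeq2, on genome build GRCm38, with versions not given in the sources used here. Raw counts per gene were deposited in 8 tables of 6 libraries each, per the file headers, with 1 column per library. The same tables give the authors' own log2 fold changes with a p-value for each gene. The other 96 per-sample columns, normalized or repeated between tables, were not used. Tests used edgeR 4.0.16 under R 4.3.3 (TMM, quasi-likelihood F test, a minimum mean of 10 counts, Benjamini-Hochberg over all genes tested, call at an adjusted p under 0.05), on 6 libraries for 2 groups, 12 for an interaction and 24 for the 3-way interaction. A standard error is the log2 change divided by the square root of F. CPM were TMM-scaled within each cell type (12 libraries), so that values of neurons and astrocytes stand on separate scales. Levels of members in CPM are not compared across them. Marker sums of neuron and astrocyte cultures are set side by side only as a rough description. The scripts were tested on simulated data. Depth was 16.03 to 25.93 M counts, and replicates differed by more than sampling noise (chi-square per gene at least 6.6). Alternatives were DESeq2 1.42.0, its size factors in edgeR, no filter, a GC correction in 20 bins (99.9% of tested genes had a value), the replicate block, both of these together, and leaving out each library.

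The members and gene lists were chosen with earlier results of these data known. Named genes are the 39 members, Eif2ak3, Hspa5, 6 regulators, and of the further transport genes the 4 called ones with the smallest adjusted p in each direction. Replicate numbers come from the titles. Same-numbered astrocyte libraries deviated together (r of 0.19 to 0.49 for every pair of groups), as did those of TM-treated Perk KO and WT neurons (0.13 to 0.31). These were taken as paired only in the fits with the replicate block, which are given beside the main results. The main counts, standard errors and p-values come from fits without the block.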

Additional observations from a re-analysis of the deposited data

Results flagged for a closer look

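The responses below differed between 2 groups by a test of the difference itself, the interaction in edgeR's quasi-likelihood test at an adjusted p under 0.05. Groups of 3 libraries were not searched for outlying samples. Values are differences between 2 log2 changes under TM.

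Between Perk KO and WT neurons, the response of COPII genes was lower in Perk KO cells for Sec16a (-0.83), Sec23a (-0.80), Sec23b (-0.80), Sec24d (-1.21), Sec31a (-0.91) and Preb (-0.72). That of cargo receptors was lower for Lman1 (-0.87), Mcfd2 (-1.07), Surf4 (-0.75) and Tmed2 (-0.63). COPI genes with a lower response were Copa (-0.72), Copb1 (-0.85), Copb2 (-0.47), Copg1 (-0.40), Arcn1 (-0.80) and Arfgap3 (-0.89), and SNAREs with one were Sec22b (-0.63), Bet1 (-1.13), Gosr2 (-0.40) and Stx5a (-0.94). Kdelr1 (0.41) had a higher response in Perk KO neurons. With the GC correction Bet1, Copb2, Sec22b, Sec23b and Tmed2 did not pass.

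Between Perk KO and WT astrocytes, the COPII genes with a lower response in Perk KO cells were Sec13 (-0.53), Sec16a (-1.07), Sec23a (-0.85), Sec23b (-0.56), Sec24a (-0.85), Sec24d (-1.33), Sec31a (-0.77), Sar1a (-0.36) and Preb (-0.86). Among receptors they were Lman2 (-0.45), Mcfd2 (-1.20), Surf4 (-0.63), Tmed2 (-0.68), Kdelr2 (-0.68) and Kdelr3 (-0.80). Among COPI genes they were Copa (-0.56), Copb1 (-0.83), Copb2 (-0.51), Copg1 (-0.40), Copz1 (-0.75), Arcn1 (-0.51) and Arfgap3 (-0.84). SNARE and tether genes with a lower response were Sec22b (-0.70), Bet1 (-0.76), Gosr2 (-0.59), Stx5a (-0.88) and Golgb1 (-0.43). Copz2 (0.80) had a higher response in Perk KO astrocytes. With the GC correction Sec23b did not pass.

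Between WT neurons and WT astrocytes, the response was lower in neurons for Sec13 (-0.68), Sec23a (-0.55), Sec31a (-0.51), Sar1a (-0.43), Preb (-0.78), Kdelr2 (-0.69), Copg1 (-0.61), Copz1 (-0.76) and Arfgap3 (-0.74).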

How the results depend on the processing

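Of the members called as changed by TM, every direction held without the filter on low counts, with DESeq2's size factors in edgeR, with DESeq2, with the GC correction and with the replicate block. The counts of members higher with TM stayed within 1.5 times those reported under all of these and without any 1 library. The authors' deposited tables called 32 members higher and 1 lower in WT neurons, 33 and 0 in WT astrocytes, 23 and 0 in Perk KO neurons, and 27 and 0 in Perk KO astrocytes. The smaller counts moved, and the cause was not tested. Arf4 was given no value for want of counts, for a reason that was not tested. Of the tested members Copz2 and Kdelr3 had the fewest counts in neurons.

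For Perk KO against WT in control neurons the count of higher members was 1 with the GC correction and 1 with that and the replicate block, and that of lower members was 1 with DESeq2's size factors, 3 with DESeq2, 3 with the GC correction and 10 with that and the block. With the correction and the block 2480 of 15757 genes were higher and 2268 lower. The lower members were thus a larger share than the lower genes over all. Sec23a (-0.09) and Bet1 (-0.26) changed sign with the GC correction and with both together. In control astrocytes the replicate block gave 2 higher and 5 lower, as did the block with the GC correction, and DESeq2 gave 2 lower and the GC correction 1. For TM in WT astrocytes 1 member was lower without the filter, 1 with the GC correction, 2 with the replicate block and 2 with both, and for TM in Perk KO astrocytes 1 with both. For genotype by TM, the higher members in neurons numbered 2 with the size factors, 2 with DESeq2, 2 with the GC correction, 0 with the replicate block and 2 with both, and in astrocytes 3 with both. For cell type by TM in WT the lower members numbered 4 without the filter and 18 with both corrections, and for the 3-way test the higher ones 1 with the size factors, DESeq2, the GC correction or the block and 3 with both. With both, 2698 of 15712 genes were lower for cell type by TM, a smaller share than among the members. The other member counts of this paragraph and the next are given here without shares over all genes. Between WT control neurons and astrocytes the GC correction turned Sec22b (0.30), Sec23b (0.25) and Bet1 (0.01).

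Leaving out each library in turn gave 0 to 1 lower members for TM in WT neurons, 0 to 2 for TM in Perk KO neurons and 0 to 2 for TM in WT astrocytes. It gave 0 to 3 higher for Perk KO against WT in TM neurons, 0 to 6 higher and 0 to 9 lower in control neurons, 2 to 4 higher in TM astrocytes and 0 to 3 lower in control astrocytes. It gave 0 to 2 higher for genotype by TM in neurons, 1 to 3 in astrocytes, 0 to 1 for cell type by TM, 0 to 2 for the 3-way test, and 5 to 10 for neurons against astrocytes. Without replicate 2 of TM-treated Perk KO neurons Golgb1 passed as lower with TM (-0.31), and over the 6 such fits it ranged from -0.31 to 0.22.

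Where same-numbered libraries were paired, the calls that the replicate block changed stand beside the results. Other neuron groups were not taken as paired (r from -0.38 to 0.28), although control Perk KO and WT neurons matched best by number in all 3 replicates (0.09 to 0.23). In these neuron groups the block lost Copa (0.0792) and Copz2 (0.0596) for TM in Perk KO neurons and Kdelr1 (0.053) for genotype by TM, by adjusted p, and added Lman1 and Lman2 between controls. The block also added Sec16a, Copb2, Cope and Tmed2 for cell type by TM and Copz1 (0.0421) for the 3-way test.

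Among all called genes the share that was higher moved by more than 10 points under some settings. It was 48% with the replicate block and 31.7% without for Perk KO against WT in control astrocytes (47.5% with the block and the GC correction), 69.1% without the filter and 49.7% with it for cell type by TM, and 25.4% without the filter, 52.3% with DESeq2, 51.1% with the GC correction, 53.6% with that and the block and 37.8% as reported for the 3-way test. Without the filter the median of all genes was 0.135 for Perk KO against WT in TM neurons, beside 0.023 with it, and 0.119 for cell type by TM, beside -0.021. Counts over all genes also moved by more than 1.5 times in some fits without 1 library. For TM in Perk KO neurons 1097 to 2791 genes were higher and 870 to 3053 lower, beside 2114 and 1744 with all libraries, lowest without replicate 3 (higher) or 2 (lower) of the controls and highest without TM replicate 2. For TM in Perk KO astrocytes they were lowest without TM replicate 2, at 459 and 348, beside 841 and 698. For Perk KO against WT in control neurons 136 to 3179 were higher and 121 to 2235 lower, beside 1927 and 1443, lowest without Perk KO replicate 3 and highest without WT replicate 3. For cell type by TM 1219 were lower without replicate 1 of control WT astrocytes, beside 1970, and for the 3-way test 138 were higher without replicate 1 of control WT neurons, beside 332.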
